A study of Mus musculus with 12 samples.

Results

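The genes described are 38 genes of autophagy and of the lysosome, of 32285 genes in the expression matrices. They were listed by name, from the kinase complex starting autophagy to the enzymes inside the lysosome. All mice were C57Bl/6 and carried subcutaneous MCA205 tumours, a mouse fibrosarcoma line, grown from 300000 cells. Oxaliplatin, a platinum drug that kills dividing cells, was given to all at 10 mg/kg after 8 days. Anti-PD1, an antibody against an inhibitory receptor of T cells, followed at 200 µg after 8 more days. The isotype group (n = 3) received the control antibody IgG2a and the anti-ACBP group (n = 3) an antibody that neutralises the acyl-CoA binding protein encoded by Dbi (ACBP), both at 2.5 mg/kg every 2 days. Dosing ran from 2 days before oxaliplatin until 1 day before anti-PD1, and tumours were taken 2 days after anti-PD1. Chemotherapy and anti-PD1 are therefore shared by the controls, and no untreated tumour is among the samples. CD4+ and CD8+ T cells were sorted, mixed in equal numbers and read as single-cell 5′ libraries, 1 per mouse. ACBP outside cells is known to hold back autophagy, and the comparison asks how these genes differ when it is neutralised.

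In autophagy a double membrane closes around cytoplasm and delivers it to the lysosome. A kinase complex starts the process, a lipid kinase marks the membrane, a ubiquitin-like conjugation system attaches the ATG8 proteins to it, and cargo receptors bridge ATG8 and the cargo. The transcription factors Tfeb and Tfe3 are known to switch on many genes of the pathway and of the lysosome through a short promoter element, named CLEAR, when nutrients are short. T cells are known to need autophagy for survival and memory, and regulatory T cells to need it for their stability. A transcript level does not measure how much autophagy takes place, because the pathway is regulated largely through its proteins.

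The promoter stretches below are shown because they hold the core of that element, and that of Sqstm1 because the largest member change that passed was that of this gene. Promoters came from RefSeq (GRCm38.p6), from 250 bases before to 50 bases after each start, and 31 of the 38 members were matched by symbol. The CLEAR core, TCACGTGA, was found in 4 of these 31 members. That is 4 of their 37 windows (10.8%), since some have more than 1 start, against 0.974% of all 32851 promoter windows. They are Ctsa, Ctsd and Atp6v0d1 of the lysosome and Atg3 of the conjugation system. Capitals mark the core, which reads the same on both strands. Ctsa lies at chr2:164833733-164833792 (+ strand) and holds the core 13 bases before and again at base 5 after the start. Ctsd lies at chr7:142387893-142387952 (- strand), with the core 99 bases before the start. Atp6v0d1 lies at chr8:105566045-105566104 (- strand), where the core spans the start, and Atg3 at chr16:45158731-45158790 (+ strand), with the core 72 bases before it.
Ctsa: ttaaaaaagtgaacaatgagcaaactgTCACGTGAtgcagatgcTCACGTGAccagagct
Ctsd: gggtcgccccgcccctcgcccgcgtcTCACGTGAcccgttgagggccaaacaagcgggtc
Atp6v0d1: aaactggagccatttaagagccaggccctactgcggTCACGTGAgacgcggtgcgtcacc
Atg3: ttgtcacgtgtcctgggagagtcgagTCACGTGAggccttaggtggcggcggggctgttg
Sqstm1: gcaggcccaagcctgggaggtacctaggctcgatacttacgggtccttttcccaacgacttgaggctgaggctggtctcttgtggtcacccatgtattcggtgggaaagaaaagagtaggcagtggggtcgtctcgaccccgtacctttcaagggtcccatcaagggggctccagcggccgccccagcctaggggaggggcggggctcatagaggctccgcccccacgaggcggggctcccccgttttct

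The Sqstm1 stretch is the 250 bases before its start at chr11:50210821-50211070 (- strand), and has no capitals because none of the 6 motifs searched on both strands was found in its window. The shorter E-box CACGTG, which lies inside the CLEAR core, was found in 9 members and 9 of the 37 windows (24.3%), against 7.15% of all windows. Lamp1 held it at 4 places within 61 bases of its start. The core of the antioxidant response element, TGACNNNGC, was found in 5 of the 37 windows (13.5%, against 12.4%) and the AP-1 site TGANTCA in 2 (5.41%, against 7.81%). The cAMP response element TGACGTCA was found in 1 (2.7%, against 1.79%) and the FOXO site GTAAACA in none, against 3.65%. These are matches of letters, and binding was not measured.

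The deposited table of 30749 cells (of 69249 barcodes) gave 2923 to 7238 cells per library and 27791735 to 65519423 UMIs, the counted transcript molecules. The cells compared fall into 3 classes: 16945 CD8 T cells, 8902 conventional CD4 T cells and 4706 regulatory T cells. Their defining genes matched these names in the main: 81.5% of regulatory T cells had a Foxp3 UMI, against 1.82% of conventional CD4 and 1.6% of CD8 T cells. A Foxp3 UMI was itself used to assign CD4 cells of clusters 4, 5 and 8, so these shares are partly set by the assignment. In cluster 2, taken whole as regulatory, 76 to 84.7% of the cells of each mouse had one. In clusters 1 and 7, taken whole as conventional CD4, it was 0.781 to 5.21%. Of conventional CD4 T cells, 12.5% had more Cd8 than Cd4 UMIs. This share was 12, 4.7 and 17.8% in isotype mice 1 to 3 and 14.2, 20.7 and 15.5% in anti-ACBP mice 1 to 3. Of 16 macrophage and monocyte markers 12, 11 and 10 had UMIs in CD8, conventional CD4 and regulatory T cells. Adgre1 and Cd163 were among those at 0 in all 3 classes. Median UMIs per cell were 7147.5, 4556 and 4516 for isotype mice 1 to 3, and 6602.5, 7682 and 6676 for anti-ACBP mice 1 to 3. A barcode found in more than 1 library was carried by 1078 cells (3.51%). Levels below are UMIs per 1000000 UMIs of the class in that mouse (CPM). They count molecules and are not per gene length, so they were compared between samples and not between genes.

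With anti-ACBP, 3 members rose in regulatory T cells and none passed in the other classes. Sqstm1, Rb1cc1 and Map1lc3a were the 3 of 36 tested members that passed in regulatory T cells, where 3.34% of all tested genes passed (edgeR quasi-likelihood test, adjusted p under 0.05). At an unadjusted p under 0.05 lay 14 of the 36 (38.9%, 12 of them higher), against 21.1% of all genes. For CD8 T cells 0 of 37 tested members passed, against 0.929% of all genes. At an unadjusted p under 0.05 there were 4 (10.8%), against 17.9% of all genes. For conventional CD4 T cells 0 of 36 passed, against 0.329% of all genes, and 7 had an unadjusted p under 0.05 (19.4%, against 15.2%). DESeq2 called 0 members in CD8 and 1 in conventional CD4 T cells. Ctsl was too low to be tested in any class, and Wipi1 too low in both CD4 classes. The median log2 fold change of the tested members was 0.164 in regulatory T cells, 0.085 in CD8 and 0.074 in conventional CD4 T cells, beside medians of -0.012, -0.003 and -0.007 over all tested genes. Above 0 lay 26 of 36, 29 of 37 and 27 of 36 members, respectively. The classes come from the same mice, so these are not independent comparisons.

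**Figure D1:**
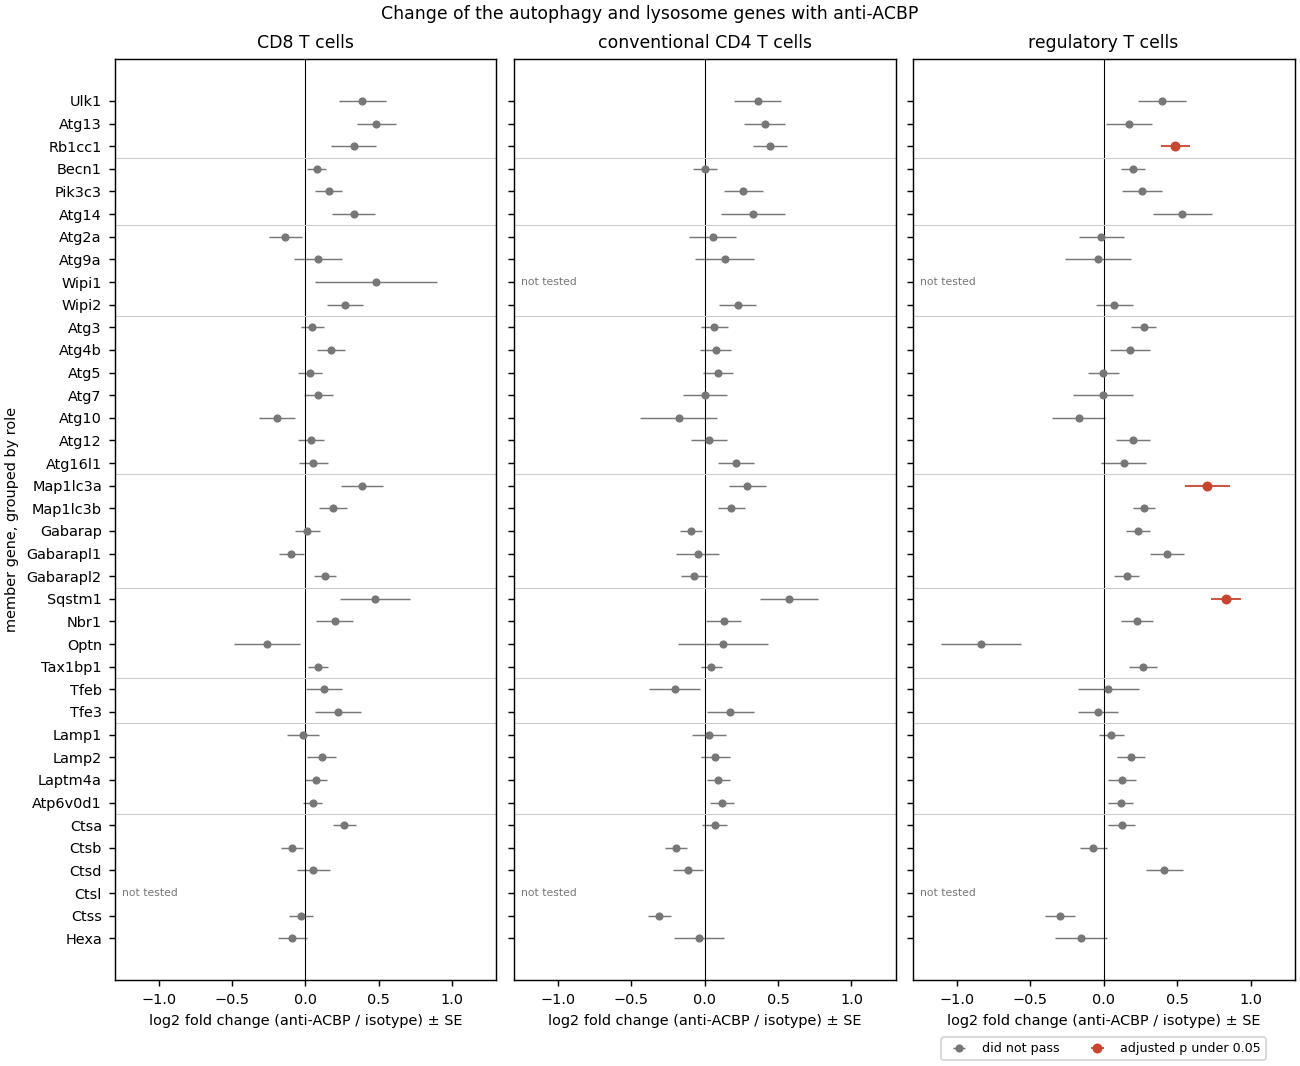
Log2 fold change of each member (anti-ACBP over isotype, with its standard error) in the 3 classes of T cells, ordered by role from initiation at the top to lysosomal enzymes at the bottom. Red points passed at an adjusted p under 0.05 and lie in regulatory T cells only (Rb1cc1, Map1lc3a and Sqstm1); most points in each panel lie to the right of 0.

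The groups were also described by whether the 3 anti-ACBP mice all lay beyond the 3 isotype mice. In regulatory T cells 17 members (47.2% of those tested) were higher in every anti-ACBP mouse, against 14.8% of all genes, and 0 were lower in every one, against 12% of all genes. Among regulatory T cells called G1, fewer lay apart: of the 17, Atg14, Atg12, Gabarap, Gabarapl2, Nbr1, Lamp2, Ctsd and Atp6v0d1 overlapped. Optn and Ctss were lower in every anti-ACBP mouse in those G1 cells. The share of all genes was not counted for G1 cells. The counts for CD8 T cells were 12 higher (32.4%, against 15.7% of all genes) and 0 lower (against 8.69%). Those for conventional CD4 T cells were 4 higher (11.1%, against 10.3%) and 3 lower (8.33%, against 10.7%), shares near those of all genes. The 3 that were lower there were Gabarap, Ctsb and Ctss.

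The cargo receptors were led by Sqstm1, whose product binds ubiquitinated cargo and ATG8 and is itself degraded by autophagy. In regulatory T cells Sqstm1 stood at 422, 320 and 371 CPM in isotype mice 1 to 3 and at 658, 657 and 698 CPM in the anti-ACBP mice. The lowest anti-ACBP mouse thus lay well above the highest isotype mouse. The mean was 371 ± 51.1 CPM without and 671 ± 23.3 CPM with anti-ACBP (SD, n = 3). Sqstm1 rose by 0.83 ± 0.10 on the log2 scale (SE; edgeR adjusted p = 0.00425). Sqstm1 passed under each of the 16 alternative settings, with log2 fold changes from 0.605 to 0.956.

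Among conventional CD4 T cells Sqstm1 stood at 600, 350 and 476 CPM in isotype and 739, 708 and 659 CPM in anti-ACBP mice, again with no overlap. The log2 fold change of 0.57 ± 0.20 (SE) did not pass (edgeR adjusted p = 0.239). It passed with DESeq2 (adjusted p = 0.0295) and without isotype mouse 1 (0.798; edgeR adjusted p = 0.0428). The CD8 T cells gave 492, 265 and 357 CPM in isotype and 585, 531 and 461 CPM in anti-ACBP mice, where isotype mouse 1 lay among the treated mice. There the log2 fold change of 0.47 ± 0.24 (SE) did not pass (edgeR adjusted p = 0.367), and it lay between 0.27 without isotype mouse 2 and 0.748 without isotype mouse 1. In every class isotype mouse 1 was the highest and isotype mouse 2 the lowest of the controls for Sqstm1. Isotype mouse 1 also had the deepest cells of the controls, and the part of depth in this was not tested.

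The other receptors lay on both sides of 0, and Tax1bp1, Optn and Nbr1 are given because of their values. Tax1bp1, a receptor of ubiquitinated cargo, was at 339, 426 and 359 CPM in isotype and 449, 446 and 479 CPM in anti-ACBP regulatory T cells (log2 fold change 0.27 ± 0.09 SE; edgeR adjusted p = 0.13), and it passed without isotype mouse 2 (0.363; adjusted p = 0.0273). Optn, another such receptor, had the lowest fold change of the members in that class. Its levels were 18.8, 12 and 19.2 CPM in isotype and 7.25, 13.7 and 7.33 CPM in anti-ACBP mice, with anti-ACBP mouse 2 above isotype mouse 2. Its log2 fold change was -0.83 ± 0.27 (SE; edgeR adjusted p = 0.12), and it passed without isotype mouse 2 (-1.01; adjusted p = 0.0247). Nbr1 was higher in every anti-ACBP mouse in regulatory T cells, from 33.7, 34.2 and 40.2 CPM to 42.2, 43 and 42.4 CPM, and did not pass.

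The initiation complex is made of the kinase Ulk1 and of Atg13 and Rb1cc1, the scaffold on which it assembles. In regulatory T cells Rb1cc1 was at 64.4, 54.8 and 64.5 CPM in isotype and 86.3, 84.5 and 92.1 CPM in anti-ACBP mice, with no overlap. It rose by 0.49 ± 0.10 on the log2 scale (SE; edgeR adjusted p = 0.0297). It passed under 9 of the 16 alternatives and missed the threshold without isotype mouse 3 (adjusted p = 0.0947) and without anti-ACBP mouse 1 (0.0761), 2 (0.0869) or 3 (0.091). For Rb1cc1 the conventional CD4 T cells gave 62.1, 47.3 and 57.2 CPM against 73.1, 73.5 and 78.2 CPM (log2 fold change 0.45 ± 0.11 SE; edgeR adjusted p = 0.121). This too did not overlap, and it passed without isotype mouse 1 (0.565; adjusted p = 0.0486). CD8 levels were 65.3, 43 and 48.4 CPM against 70.3, 66.6 and 64.8 CPM (0.33 ± 0.15 SE; edgeR adjusted p = 0.309), with isotype mouse 1 again inside the treated range.

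Ulk1 and Atg13 lay above 0 in all 3 classes and passed in none. Ulk1 was at 16.1, 10.8 and 13.1 CPM in isotype and 16.4, 20.4 and 17.3 CPM in anti-ACBP CD8 T cells (0.39 ± 0.16 SE on the log2 scale; edgeR adjusted p = 0.245). Conventional CD4 T cells gave 0.36 ± 0.16 (adjusted p = 0.32) and regulatory T cells 0.40 ± 0.16 (adjusted p = 0.189), and in both the groups overlapped. The value for regulatory T cells was 0.636 without isotype mouse 1, where it passed (adjusted p = 0.0458), and 0.185 in cells called G1. Atg13 had the smallest p of the members in CD8 T cells, at 12, 10.6 and 9.02 CPM against 14.1, 14.4 and 16.9 CPM. That log2 fold change was 0.48 ± 0.13 (SE; edgeR adjusted p = 0.119), and in conventional CD4 T cells it was 0.41 ± 0.14 (adjusted p = 0.202). Without isotype mouse 1, 5 members passed in CD8 T cells (Rb1cc1, Atg13, Ulk1, Map1lc3b and Nbr1), so that the count of 0 depends on that mouse. Calls over all genes moved as well: leaving out a mouse, they ran from 0 to 745 in CD8 T cells, against 109 with all mice.

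The lipid kinase complex that marks the membrane holds Pik3c3, the kinase, with Becn1 and Atg14. Becn1 was at 82.8, 77.2 and 76.1 CPM in isotype and 89.6, 92.7 and 93.3 CPM in anti-ACBP regulatory T cells, which did not overlap. Its log2 fold change was 0.20 ± 0.08 (SE; edgeR adjusted p = 0.202) there, 0.077 ± 0.066 in CD8 (adjusted p = 0.584) and 0.003 ± 0.079 in conventional CD4 T cells (adjusted p = 0.989). All 3 genes of the complex were higher in every anti-ACBP mouse of the CD8 class, and none passed. The lipid transfer and membrane genes Atg2a, Atg9a, Wipi1 and Wipi2 had tested log2 fold changes between -0.138 and 0.477, the highest being that of Wipi1 in CD8 T cells, which rests on 59 UMIs in isotype and 100 in anti-ACBP mice.

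The 7 conjugation genes, among them the enzymes Atg7, Atg10 and Atg3, the protease Atg4b and the complex of Atg5, Atg12 and Atg16l1, had median log2 fold changes of 0.047 for CD8, 0.066 for conventional CD4 and 0.136 for regulatory T cells. None of the 7 passed in any class. Atg3, which attaches the lipid to ATG8 and carries the CLEAR core printed above, was at 60.7, 62.2 and 61.8 CPM in isotype and 72.3, 73.8 and 81.1 CPM in anti-ACBP regulatory T cells. These groups lay apart, and the change was 0.27 ± 0.09 on the log2 scale (SE; edgeR adjusted p = 0.102). Its log2 fold change was 0.047 among CD8 and 0.066 among conventional CD4 T cells, and the groups overlapped in both. Atg3 is named for its promoter and its values.

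All 5 ATG8 genes were higher in every anti-ACBP mouse in regulatory T cells, and 1 of them passed. Map1lc3a, a member of the LC3 branch, stood at 11.3, 10.4 and 12.1 CPM in isotype and 16.9, 18.8 and 20.8 CPM in anti-ACBP mice. It rose by 0.71 ± 0.15 on the log2 scale (SE; edgeR adjusted p = 0.0357), on 306 UMIs in isotype and 227 in anti-ACBP cells. It passed under 8 of 16 alternatives, and missed the threshold without isotype mouse 1 (adjusted p = 0.0746) or 3 (0.105) and without anti-ACBP mouse 1 (0.0701), 2 (0.113) or 3 (0.102). Gabarapl1 was at 29.1, 27.7 and 27 CPM against 40.9, 38.6 and 34.6 CPM (0.43 ± 0.12 SE; edgeR adjusted p = 0.068). Map1lc3b was at 255, 259 and 259 CPM against 317, 305 and 328 CPM (0.28 ± 0.08 SE; edgeR adjusted p = 0.0709). Both lay apart between the groups and just missed the threshold. Gabarap (0.23 ± 0.08 SE; adjusted p = 0.13) and Gabarapl2 (0.16 ± 0.08; adjusted p = 0.318) are named because they complete the family.

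In the other classes the family lay on both sides of 0. Among conventional CD4 T cells 2 of the 5 ATG8 genes lay above 0: Map1lc3a at 0.29 ± 0.13 (SE; edgeR adjusted p = 0.306) and Map1lc3b at 0.18 ± 0.09 (adjusted p = 0.383). Gabarapl1 was at -0.048 ± 0.148 (adjusted p = 0.918). Gabarap stood at 371, 363 and 358 CPM in isotype and 343, 319 and 354 CPM in anti-ACBP mice there, lower in each. Map1lc3a of CD8 T cells was at 19.3, 14.6 and 19.1 CPM against 25.4, 25.3 and 20.2 CPM (0.38 ± 0.15 SE; edgeR adjusted p = 0.218). Map1lc3b was at 0.19 ± 0.10 (adjusted p = 0.349) and Gabarapl1 at -0.097 ± 0.084 (adjusted p = 0.591). As a share of all ATG8 UMIs of regulatory T cells, Map1lc3a made up 1.32, 1.12 and 1.39% in isotype mice and 1.59, 1.84 and 1.9% in anti-ACBP mice. Its share was 2.23 to 2.55% and 2.82 to 3% in conventional CD4 T cells, so that its share was higher in every treated mouse in both classes. In CD8 T cells the shares overlapped, at 2.2, 1.9 and 2.42% against 2.74, 2.96 and 2.32%.

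**Figure D2:**
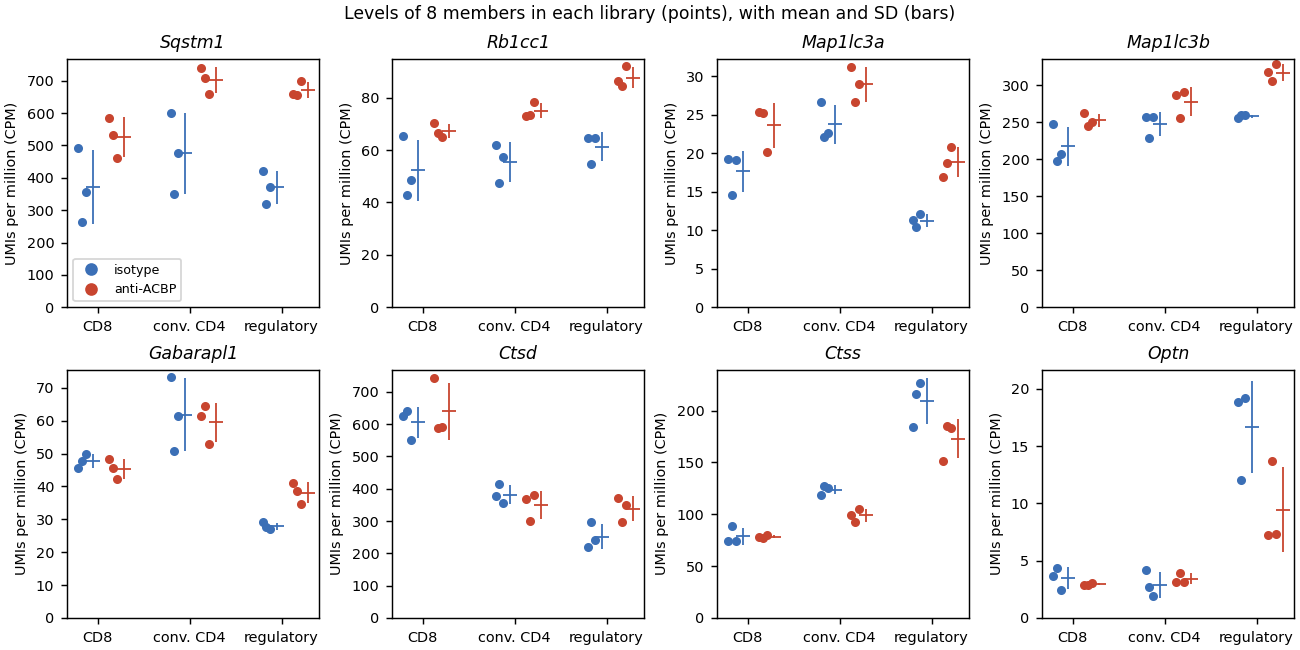
Levels of 8 members in each library (CPM of the class), isotype in blue and anti-ACBP in red, with the mean and SD (n = 3) beside the points. Sqstm1, Rb1cc1, Map1lc3a, Map1lc3b and Gabarapl1 lie apart between the groups in regulatory T cells; Ctss lies lower in conventional CD4 T cells; Optn is highest in isotype regulatory T cells.

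The transcription factors Tfeb and Tfe3 did not pass in any class. Tfeb was at 10.3, 13.1 and 9.97 CPM in isotype and 9.3, 10.9 and 15.5 CPM in anti-ACBP regulatory T cells (log2 fold change 0.033 ± 0.209 SE; edgeR adjusted p = 0.959), with full overlap. It was at 0.13 ± 0.12 in CD8 (adjusted p = 0.637) and at -0.20 ± 0.17 in conventional CD4 T cells (adjusted p = 0.631). Tfe3 lay between -0.037 and 0.221 over the 3 classes.

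Of the lysosomal membrane proteins Lamp1, Lamp2, Laptm4a and the proton pump subunit Atp6v0d1, none passed. Lamp1, the major membrane glycoprotein of lysosomes, was at 62.3, 60.6 and 61.4 CPM in isotype and 64, 66.5 and 63.1 CPM in anti-ACBP regulatory T cells. This small gap (0.052 ± 0.086 SE on the log2 scale; edgeR adjusted p = 0.787) reversed when libraries were thinned to equal size (-0.134). In CD8 T cells Lamp1 was at -0.019 ± 0.108 (adjusted p = 0.948) and in conventional CD4 T cells at 0.032 ± 0.115 (adjusted p = 0.931). Lamp2 in regulatory T cells went from 59.8, 62.8 and 62.7 CPM to 72.5, 76.3 and 63.6 CPM and did not pass.

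The lysosomal proteases lay on both sides of 0. Ctsd, an aspartic protease with the CLEAR core in its promoter, was at 220, 296 and 240 CPM in isotype and 370, 296 and 350 CPM in anti-ACBP regulatory T cells. The highest isotype and the lowest anti-ACBP mouse were level at that precision, and the difference of 0.41 ± 0.13 on the log2 scale (SE; edgeR adjusted p = 0.101) did not pass. It passed with DESeq2 (adjusted p = 0.0446) and without isotype mouse 2 (0.536; edgeR adjusted p = 0.0148), and was 0.263 in cells called G1. Ctsd was at 0.054 ± 0.110 in CD8 (adjusted p = 0.839) and at -0.11 ± 0.10 in conventional CD4 T cells (adjusted p = 0.663). Ctss, a cysteine protease known from antigen presentation, was at 119, 127 and 125 CPM in isotype and 99.6, 92.1 and 105 CPM in anti-ACBP conventional CD4 T cells. Every treated mouse was lower, and the value of -0.31 ± 0.08 on the log2 scale (SE; edgeR adjusted p = 0.123) did not pass. Ctss in regulatory T cells, added for its values, was at 184, 216 and 227 CPM against 151, 185 and 183 CPM (-0.30 ± 0.10 SE; edgeR adjusted p = 0.126).

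Ctsb, a further cysteine protease, was at 332, 319 and 316 CPM in isotype and 265, 272 and 299 CPM in anti-ACBP conventional CD4 T cells (log2 fold change -0.20 ± 0.08 SE; edgeR adjusted p = 0.262). In CD8 T cells it was at -0.092 ± 0.075 (adjusted p = 0.56) and in regulatory T cells at -0.069 ± 0.093 (adjusted p = 0.728). Ctsa, a carboxypeptidase that carries the CLEAR core at 2 places, was at 111, 126 and 104 CPM in isotype and 140, 135 and 141 CPM in anti-ACBP CD8 T cells. These groups did not overlap, and the difference of 0.26 ± 0.08 on the log2 scale (SE; edgeR adjusted p = 0.13) did not pass. Hexa, a subunit of hexosaminidase, lay between -0.157 and -0.038 over the classes.

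Ctsl, a protease abundant in macrophages and fibroblasts, was almost missing from the T cells. It had 148 UMIs in all used cells, of which 123 came from anti-ACBP mouse 1, against 71301 UMIs in the barcodes left out of the deposited cell table. Its mean was 0.506 CPM in used cells and 1120 CPM in the other barcodes. In regulatory T cells it was at 0 in 5 of the 6 mice and at 2.42 CPM in anti-ACBP mouse 1. The fibroblast transcript Sparc had 17 UMIs in used cells against 27339 elsewhere, and Lyz2, a macrophage transcript, 14 against 7347. By contrast Sqstm1 averaged 488 CPM in used cells and 870 CPM in the other barcodes, and Ctss 105 and 97.5 CPM.

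Markers of other cells moved with the groups in places. In conventional CD4 T cells the 2 CD8 genes Cd8a and Cd8b1 summed to 71.8 to 401 CPM in isotype and 274 to 443 CPM in anti-ACBP mice, which overlapped. In regulatory T cells the 2 genes, both with UMIs, summed to 25.8 to 52 CPM in isotype and 67.7 to 115 CPM in anti-ACBP mice. When only cells whose own Cd4 and Cd8 UMIs fit the class were kept, Sqstm1 was at 0.86 (edgeR adjusted p = 0.00611), Rb1cc1 at 0.516 (0.0567) and Map1lc3a at 0.537 (0.147), so that Sqstm1 alone passed among the members. Among CD8 T cells 8 of 10 dendritic cell markers had UMIs and summed to 26.5 to 59.4 CPM in isotype and 61.9 to 90.1 CPM in anti-ACBP mice, with Flt3 and Clec9a at 0. Their part in the CD8 values was not tested. The same markers summed to 77.6 to 140 CPM in isotype and 101 to 142 CPM in anti-ACBP conventional CD4 T cells. They were highest in regulatory T cells, at 530 to 762 CPM in isotype and 599 to 658 CPM in anti-ACBP mice. The groups overlapped in both of these classes. Of 4 endothelial markers 2 had UMIs in conventional CD4 T cells and summed to 22.8 to 25.7 CPM in isotype and 14.7 to 22.1 CPM in anti-ACBP mice, with Kdr and Emcn at 0, and their part was not tested. Macrophage and monocyte markers summed to 11.7 to 18.8 CPM in isotype and 12.3 to 16.8 CPM in anti-ACBP CD8 T cells. They summed to 6.44 to 13.3 and 6.84 to 9.41 CPM in conventional CD4 T cells. In regulatory T cells they summed to 20.2 to 24.8 CPM in isotype and 22.6 to 38.3 CPM in anti-ACBP mice, with 10 of 16 detected. Adgre1, C1qa, C1qb, Apoe, Mrc1 and Cd163 were at 0 there. Fibroblast and tumour markers summed to at most 0.93 CPM there, with 5 of 8 detected, Sparc, Col1a2 and Lum at 0, and every anti-ACBP mouse higher.

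Whether the classes differed in their change was tested directly, with the mouse as a block, and no member passed. Between regulatory and CD8 T cells 0 of 38 members passed (lowest edgeR adjusted p = 0.108, 7 at an unadjusted p under 0.05), against 0.568% of all genes. Between regulatory and conventional CD4 T cells 0 of 38 passed (lowest edgeR adjusted p = 0.0784, that of Ctsd, 9 unadjusted), against 0.0424% of all genes. Ctsd passed there with scaling by library totals alone (0.565; edgeR adjusted p = 0.042), without cells marked FALSE in the DF1 column of the deposited table, whose meaning is not stated (0.578; 0.0495), and without isotype mouse 2 (0.603; 0.0297). Between conventional CD4 and CD8 T cells 0 of 38 passed (lowest edgeR adjusted p = 0.652, 1 unadjusted), against 0.0254% of all genes. The share of all genes at an unadjusted p under 0.05 was not counted for these differences. The change of Sqstm1 was larger in regulatory than in CD8 T cells by 0.345 ± 0.118 on the log2 scale (SE; edgeR adjusted p = 0.258) and than in conventional CD4 T cells by 0.236 ± 0.119 (adjusted p = 0.483). For Gabarapl1 the difference between regulatory and CD8 T cells was 0.541 ± 0.140 (SE; edgeR adjusted p = 0.108). The rise of 3 members in regulatory T cells is therefore not shown to be particular to that class.

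Levels also varied over the 9 clusters of the deposited table, of which 0, 3 and 6 are CD8, 1 and 7 conventional CD4, 2 regulatory T cells, and 4, 5 and 8 mixed. The clusters were made from the expression of these cells, so the following is a description without a test. In isotype mice 13 of the 38 members were highest in cluster 2 and 13 were lowest in cluster 4, which holds no cell in G1, the phase before DNA synthesis. The same counts were not made over all genes, so they are not shown to be a trait of the members. Optn averaged 16.9 ± 4.05 CPM (SD, n = 3) in cluster 2 and 0.742 ± 1.28 CPM in cluster 7, the widest gap of the members detected in every cluster, and the isotype mice of cluster 2 all lay above those of cluster 4, the next. Tax1bp1, Lamp2, Ctss and Atg10 were also highest in cluster 2, with no overlap with the next cluster. Ctss averaged 212 ± 20.8 CPM in cluster 2, 138 CPM in cluster 1 and 52.2 ± 6.15 CPM in cluster 4.

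Other members ran the opposite way across the clusters. Ctsd was highest in cluster 3, at 818 ± 58.8 CPM (SD, n = 3), followed by 649 CPM in cluster 6, and lowest in cluster 2, at 251 ± 38.7 CPM. Gabarapl1 averaged 75.5 ± 15.8 CPM in cluster 7 and 27.6 ± 0.931 CPM in cluster 2, and Map1lc3a 25.4 ± 3.9 CPM in cluster 1 and 11.4 ± 0.746 CPM in cluster 2. These 2 ATG8 genes were thus lowest in the cluster where anti-ACBP mice had the higher levels described above. Lamp1 averaged 92 ± 9.76 CPM in cluster 0 and 37.7 ± 9.1 CPM in cluster 7. Becn1 (79 against 66.4 CPM), Atg5 (44.6 against 39.2 CPM) and Atg4b (30.9 against 25.7 CPM) varied least between their highest and lowest cluster. For most members the isotype mice of the highest cluster overlapped with those of the next, so these neighbours in the order do not differ beyond their spread.

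**Figure D3:**
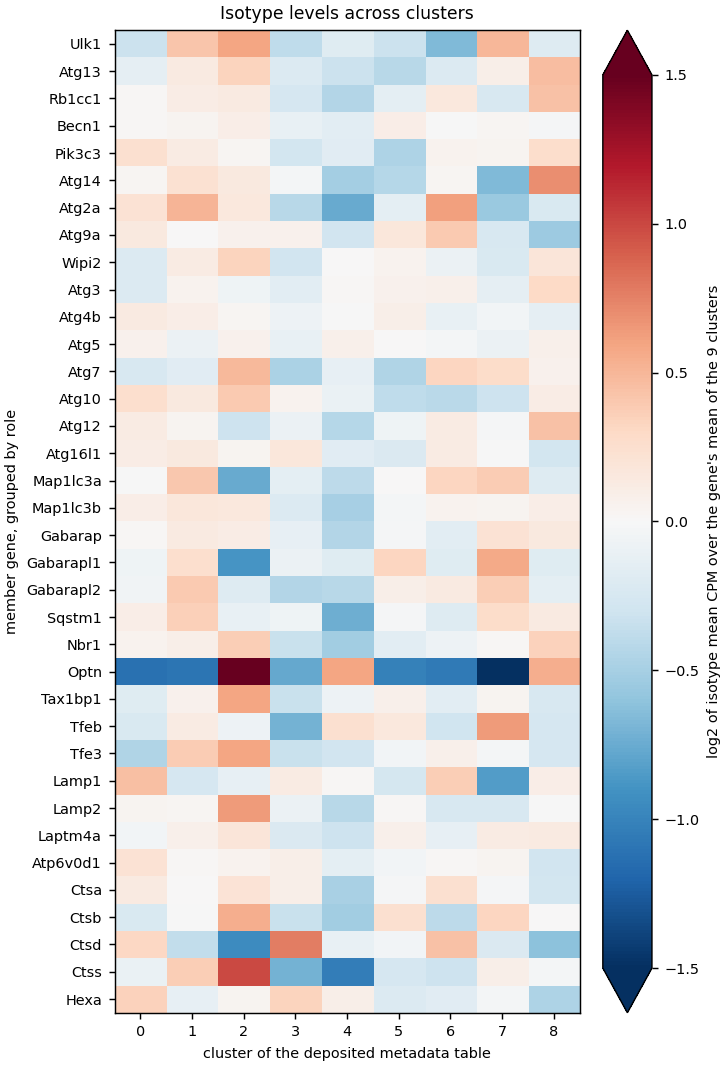
Isotype level of 36 members (rows, ordered by role) in the 9 clusters (columns), as the log2 of the mean CPM of the 3 isotype mice over the gene's mean of the clusters; Wipi1 and Ctsl are left out for low counts. Cluster 2 is red for Optn, Ctss, Lamp2 and Tax1bp1 and blue for Map1lc3a, Gabarapl1 and Ctsd, and cluster 4 is blue for most members.

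Within single clusters, 3 members rose in cluster 2 and 2 in cluster 6, and 0 of the tested members passed in clusters 0, 1, 3, 4, 5 and 7. Over all genes 1.24, 0.192, 4.1, 0.218, 0.918, 0.207, 2.4 and 0.439% passed in clusters 0 to 7, in that order. Cluster 8 could not be fitted, since anti-ACBP mice 2 and 3 had 19 and 14 cells in it. In cluster 2 the 3 were Sqstm1, Rb1cc1 and Map1lc3a, in nearly the same cells as above. In cluster 6, a CD8 cluster, Sqstm1 was at 440, 268 and 348 CPM in isotype and 688, 664 and 532 CPM in anti-ACBP mice. It rose there by 0.84 ± 0.17 on the log2 scale (SE; edgeR adjusted p = 0.0214). Ctsa in the same cluster was at 127, 163 and 114 CPM against 203, 171 and 209 CPM and rose by 0.54 ± 0.14 (SE; edgeR adjusted p = 0.0493). Both had groups that did not overlap. Without isotype mouse 3, anti-ACBP mouse 1 or anti-ACBP mouse 2, Sqstm1 in cluster 6 missed the threshold (edgeR adjusted p = 0.157, 0.0699 and 0.078). Ctsa kept its call only without isotype mouse 2, with adjusted p from 0.064 to 0.201 without any other mouse. In cluster 2 Sqstm1 passed without each mouse in turn, while Rb1cc1 and Map1lc3a lost their calls without the mice named for the whole class.

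The mean of Sqstm1 was higher with anti-ACBP in each of the 9 clusters, and the groups lay apart in clusters 2, 5, 6, 7 and 8. In cluster 5 it was at 500, 323 and 377 CPM against 640, 773 and 544 CPM (0.70 ± 0.19 SE; edgeR adjusted p = 0.318). In cluster 7 it was at 578, 377 and 509 CPM against 726, 708 and 674 CPM (0.52 ± 0.14 SE; edgeR adjusted p = 0.105). In the untested cluster 8 it was at 489, 425 and 421 CPM against 802, 675 and 809 CPM. The smallest fitted value was 0.35 ± 0.29 in cluster 3 (SE; edgeR adjusted p = 0.705).

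**Figure D4:**
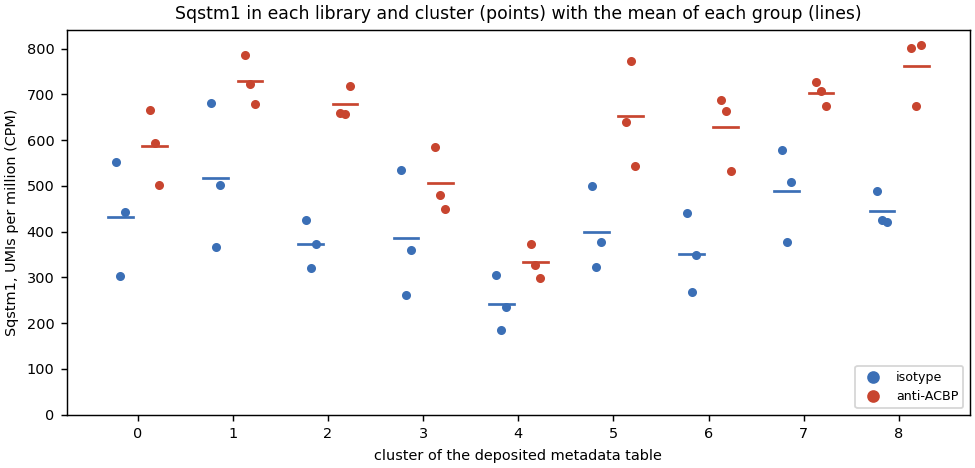
Sqstm1 level (CPM of the cluster) in each library and cluster, isotype in blue and anti-ACBP in red, with a line at the mean of the 3 mice. The red line lies above the blue one in all 9 clusters, and the points lie apart in clusters 2, 5, 6, 7 and 8; cluster 4 has the lowest levels of both groups.

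The phase of the cell cycle moved with the groups in CD8 and regulatory T cells. Cells called G1 in the deposited table made up 69.6, 58.9 and 56.1% of isotype and 72.4, 72 and 72.5% of anti-ACBP CD8 T cells. Isotype mouse 1 was thus the control nearest the treated mice, and the part of phase in the CD8 values was otherwise not tested. In conventional CD4 T cells the shares overlapped, at 77.7, 77.6 and 78.6% against 78.5, 82.6 and 83.7%. Cells called G1 made up 64.5, 69.9 and 64.8% of isotype and 77.7, 82 and 85% of anti-ACBP regulatory T cells. In that class Sqstm1 was higher in G1 cells (587, 397 and 496 CPM in isotype) than in S or G2M cells of the same mice (294, 221 and 264 CPM). It was higher with anti-ACBP within both, at 773, 766 and 763 CPM in G1 and 444, 404 and 448 CPM in S or G2M cells. In G1 regulatory T cells alone 2 members passed, where 1.67% of all genes did. Sqstm1 rose by 0.60 ± 0.13 on the log2 scale (SE; edgeR adjusted p = 0.0483).

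The second was Ctss, at 237, 259 and 276 CPM in isotype and 165, 202 and 204 CPM in anti-ACBP G1 regulatory T cells. It fell by 0.467 ± 0.095 on the log2 scale (SE; edgeR adjusted p = 0.0279). Rb1cc1 was at 0.282 ± 0.103 (adjusted p = 0.192) and Map1lc3a at 0.578 ± 0.170 (adjusted p = 0.105) in G1 cells, and neither passed. Map1lc3b was at 0.097 ± 0.079 (adjusted p = 0.587) and Gabarap at 0.074 ± 0.078 (adjusted p = 0.685), both less than 0.5 times their values over all regulatory T cells. Gabarapl1 was at 0.414 ± 0.135 (adjusted p = 0.135) and Gabarapl2 at -0.004 ± 0.084 (adjusted p = 0.991). In these G1 cells the groups lay apart for Map1lc3a, Map1lc3b and Gabarapl1 and overlapped for Gabarap and Gabarapl2. The part of the cell cycle in the full-class values of these genes was otherwise not tested.

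Beyond the members, 118 other genes of the pathway were counted in 4 groups. In regulatory T cells 1 of 110 tested rose and 1 fell, in CD8 T cells 1 of 108 rose and 1 fell, and in conventional CD4 T cells 0 of 107 rose and 1 fell. Over all genes 3.34, 0.929 and 0.329% passed. The share of the other pathway genes was thus below that of all genes in regulatory T cells and above it in the other classes. With at most 1 gene rising and 1 falling in a class, these shares allow no reading in either direction. The median log2 fold changes of the other pathway genes were 0.096, 0.045 and 0.015. Higher in every anti-ACBP mouse were 22.7% in regulatory, 23.1% in CD8 and 13.1% in conventional CD4 T cells, against 14.8, 15.7 and 10.3% of all genes. The gene that fell in each class was Ddit4, an inhibitor of the nutrient-sensing kinase complex that restrains autophagy. It was at 1189, 1462 and 1569 CPM in isotype and 597, 607 and 672 CPM in anti-ACBP regulatory T cells. In CD8 T cells Ddit4 missed the threshold without isotype mouse 3 (edgeR adjusted p = 0.0547) or anti-ACBP mouse 2 (0.0714).

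Trp53inp1, whose product binds ATG8 proteins, was at 49.9, 46 and 48.4 CPM in isotype and 74.2, 66.3 and 72.5 CPM in anti-ACBP regulatory T cells. It rose by 0.54 ± 0.10 on the log2 scale (SE; edgeR adjusted p = 0.0217), and missed the threshold without isotype mouse 3 or any of the 3 anti-ACBP mice (adjusted p from 0.0625 to 0.0877). It also missed it in cells called G1, at 0.208 (adjusted p = 0.414), and in libraries thinned to equal size, at 0.386 (0.0919). Prkag1, a subunit of the energy sensor AMPK, was at 37.2, 34.5 and 38.5 CPM in isotype and 51.8, 50 and 54.3 CPM in anti-ACBP CD8 T cells. It rose by 0.47 ± 0.08 (SE; edgeR adjusted p = 0.0395), and missed the threshold without isotype mouse 2 or 3 or any of the 3 anti-ACBP mice (adjusted p from 0.0546 to 0.171) and without DF1 FALSE cells (0.0527). By group in regulatory T cells, 14 of 16 tested proton pump genes lay above 0 (87.5%, against 48.1% of all genes) and 6 were higher in every anti-ACBP mouse (37.5%, against 14.8%). Of 27 further genes of the autophagy machinery 20 lay above 0 and 10 were higher in every anti-ACBP mouse (37%). Of 38 lysosomal hydrolase and membrane protein genes 23 lay above 0 and 4 were higher in every one (10.5%), and of 29 genes of nutrient and Tfeb control 18 and 5 (17.2%). In CD8 T cells these shares were 11.8% for the proton pump, 32.1% for the machinery, 20% for the hydrolases and membrane proteins and 25% for nutrient control, against 15.7% of all genes. In conventional CD4 T cells they were 12.5, 14.3, 2.78 and 25.9%, against 10.3%.

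Dbi itself, which encodes the neutralised protein, was at 246, 243 and 260 CPM in isotype and 183, 205 and 160 CPM in anti-ACBP regulatory T cells. It fell by 0.467 ± 0.098 on the log2 scale (SE; edgeR adjusted p = 0.0349), and missed the threshold without isotype mouse 1 or 3 or any of the 3 anti-ACBP mice (adjusted p from 0.0628 to 0.137). In cells called G1 it was -0.274 (adjusted p = 0.252). Its change was -0.161 ± 0.108 (adjusted p = 0.475) in CD8 and -0.259 ± 0.091 (adjusted p = 0.215) in conventional CD4 T cells. The antibody binds the protein, so the transcript is no check of its action.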

How the data were processed

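The authors deposited unscaled matrices of UMI counts from 6 single-cell 5′ expression libraries. Per the file headers, a deposited table gives each cell a cluster, a phase and a DF1 flag of unstated meaning. Per the submitters' processing notes the tools include Cell Ranger 7.0.0 and Seurat and the build is mm10, with no role stated; no source used here says how the clusters were made. The 6 receptor libraries were not used. By marker genes, clusters 0, 3 and 6 formed the CD8 class, clusters 1 and 7 the conventional CD4 class and cluster 2 the regulatory class. Cells of clusters 4, 5 and 8 were assigned by their own Cd4 against Cd8a plus Cd8b1 UMIs, with CD4 cells that had a Foxp3 UMI placed in the regulatory class; 196 stayed unassigned. No doublet caller was run; leaving out the 2407 cells with DF1 FALSE was an alternative.

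Counts were summed per mouse and class and tested with the robust two-sided quasi-likelihood F test of edgeR 4.0.16 (filterByExpr, TMM scaling), with Benjamini-Hochberg adjustment over all genes tested at 0.05. Class differences were interaction terms, blocked by mouse. DESeq2 1.42.0 was an alternative. Tested on simulated data, the fit recovered 33, 34 and 28% of genes changed by 0.5 on the log2 scale in CD8, conventional CD4 and regulatory classes, and 98, 100 and 97% of those changed by 1. Every simulated gene had the same spread between mice, and only genes above a set count were changed. The rates therefore do not describe members with few UMIs or a wider spread.

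Members and lists were chosen with earlier results of these data known. Named with statistics were members that passed in any class, 9 preset members (Ulk1, Becn1, Map1lc3b, Gabarapl1, Sqstm1, Tfeb, Lamp1, Ctsb and Ctsd), the 3 members of each class with the smallest p of those that did not pass, other pathway genes that passed, and Dbi. Genes outside this rule (Gabarap, Gabarapl2, Tax1bp1, Optn, Nbr1, Lamp2, Atg3 and, in regulatory T cells, Ctss) were chosen after their values were seen. Strand use in counting is not given here. One library was made per mouse, and with 3 against 3 mice an exact test of a single gene cannot go below p = 0.1.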

Additional observations from a re-analysis of the deposited data

How the results depend on the processing

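Sqstm1 in regulatory T cells passed under all 16 alternatives. The count of members that passed there (3) was 6 with no filter on low counts, 1 with lineage-matched cells and 1 with thinned libraries, and from 1 to 6 when a mouse was left out; without isotype mouse 3, or any of the anti-ACBP mice, it was 1. In conventional CD4 T cells (0) it was 1 with DESeq2, 1 with no filter and 0 to 2 leaving out a mouse; in CD8 T cells 0 to 5. Of the class differences (0 each), regulatory minus CD8 gave 2 with no filter and 0 to 1 leaving out a mouse, and regulatory minus conventional CD4 gave 1 with library totals, 1 with no filter, 1 without DF1 FALSE cells and 0 to 1 leaving out a mouse; conventional CD4 minus CD8 gave 0 to 0. Over the clusters the count (5) was 13 with no filter and 1 to 10 leaving out a mouse. Over all genes the calls (109, 36 and 348 in CD8, conventional CD4 and regulatory T cells) were 497, 218 and 485 with DESeq2 and 0 to 745, 2 to 139 and 44 to 774 leaving out a mouse. They were 354, 295 and 819 with no filter, 168 in CD8 T cells with library totals, 47 in CD8 T cells without DF1 FALSE cells, 56 in thinned conventional CD4, 4 in lineage-matched conventional CD4, 213 in lineage-matched regulatory and 159 in G1 regulatory T cells. The replicate numbers are not said to pair the mice. Correlations of same-numbered mice ran from -0.185 to 0.246. Number 1 matched its own number best in all 3 classes, and numbers 2 and 3 in none. With 3 mice per group this cannot settle whether they were paired. With the replicate number as a block, 0, 0 and 3 members and 157, 8 and 372 genes passed, and 5 members over the clusters, where Ctsa in cluster 6 lost its call (adjusted p = 0.113).

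Values near 0 that changed sign, none of which passed, were Lamp1 in CD8 T cells (0.0095 with library totals, 0.000224 without DF1 FALSE cells, 0.0118 thinned; -0.106 to 0.064 leaving out a mouse) and Ctsd in CD8 T cells (-0.0796 to 0.119 leaving out a mouse). In conventional CD4 T cells they were Becn1 (-0.0119 with library totals, -0.0396 in G1; -0.0179 to 0.0274 leaving out a mouse), Gabarapl1 (0.0233 thinned; -0.193 to 0.126) and Lamp1 (-0.0573 in G1, -0.00304 with whole clusters, -0.0929 thinned; -0.0297 to 0.122). In regulatory T cells they were Tfeb (-0.0946 in G1, -0.0256 thinned; -0.134 to 0.184 leaving out a mouse), Lamp1 (-0.134 thinned), Gabarapl2 (-0.00386 in G1) and Ctsb (-0.123 to 0.00879 leaving out a mouse). The cause was not tested. Low counts kept Ctsl out of the main test of each class and Wipi1 out of those of both CD4 classes. The tests of class differences held both genes, and neither passed there.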
